A study of Mus musculus with 6 samples.

Results

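Polycomb repressive complex 2 (PRC2) is the enzyme complex that methylates lysine 27 of histone H3, and its genes were followed in mouse embryonic stem cells (ESCs) with and without *Patz1*. The 10 genes, *Ezh1*, *Ezh2*, *Eed*, *Suz12*, *Rbbp4*, *Mtf2*, *Phf19*, *Phf1*, *Jarid2* and *Aebp2*, were picked by name as genes of the complex, by a rule that uses no measured value although earlier results of these data were known, from the 23420 gene symbols counted in each library. RNA was sequenced from E14 cells, an ESC line, that were either wild type (WT, 3 libraries) or *Patz1* -/- (KO, 3 libraries). Both groups grew in medium with LIF and 2i, the inhibitors of MEK1/2 and GSK3 that hold ESCs in the naive state, and received no other treatment. The KO was made with CRISPR/Cas9 and a single guide RNA, and clones were grown from single cells. The study calls the 3 libraries of a genotype biological replicates. The labels do not say whether they came from separate cultures, so the p-values measure the spread between these libraries, which may be technical. Nor do they say which clone or clones the KO libraries came from, and *Patz1* loss and clone cannot be told apart. The comparison addresses whether the PRC2 genes were expressed differently once *Patz1*, which encodes a zinc finger protein that binds G-rich DNA, was targeted.

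In PRC2, EZH2 or its relative EZH1 carries the catalytic SET domain, which is active only when bound to SUZ12, the scaffold, and EED, which reads the trimethyl mark (H3K27me3) and stimulates the enzyme. RBBP4 or RBBP7, histone-binding proteins shared with other chromatin complexes, complete the core. The core assembles with one set of accessory proteins or another: a Polycomb-like protein (PHF1, MTF2 or PHF19) in PRC2.1, which bind CpG-rich DNA, or JARID2 and AEBP2 in PRC2.2, which engage nucleosomes ubiquitinated by Polycomb repressive complex 1. In ESCs the complex covers the silent promoters of developmental regulators, and ESCs without it still self-renew but differentiate poorly.

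The libraries held between 11040756 and 47721070 counts, and replicate 3 of both genotypes were the shallow pair. These 2 libraries also stood apart in composition: a chi-square statistic of counts over genes, per degree of freedom, was 8.80 between them and at least 291 between WT replicate 3 and the other WT libraries and 304 between KO replicate 3 and the other KO libraries. *Patz1*, which lies on chromosome 11, was at 1838, 1983 and 1843 normalized counts (counts divided by a size factor per library) in WT and at 853, 862 and 862 in KO, so that 45.5% of the WT mean remained. In bulk RNA, fewer cells expressing a gene and less RNA per cell cannot be told apart. The 8 ESC markers summed to between 150024 and 158509 normalized counts in WT and between 170103 and 176061 in KO, and 1 of them, *Dppa5a*, rose, with a log2 fold change of KO over WT (log2FC) of 0.38 (adjusted p 0.00223 with DESeq2, 0.0543 without WT replicate 2 and 0.0575 without KO replicate 2). With the replicate number as a block in the DESeq2 fit, which called 6.68% of the genes it tested higher against 2.7% without the block, 3 of the 8 were called higher, *Dppa5a*, *Pou5f1* (log2FC 0.14, adjusted p 0.0405) and *Zfp42* (0.15, 0.0298). Markers of other cell types were far lower. The 4 trophoblast markers summed to 735 to 847 in WT and 459 to 517 in KO, with *Krt8* (log2FC -0.66) and *Cdx2* lower, and the 5 primitive endoderm markers to 102 to 162 and 136 to 188, with *Dab2* higher (1.33) and the log2FC of the other 4, none of them called, between -0.83 and -0.0066. The 4 fibroblast markers summed to 84.1 to 108 in WT and 134 to 169 in KO, with *Thy1* higher (0.83), *Col1a1* (-0.23) and *Col1a2* (-0.90) not called, and *Col3a1* at or under 3 counts in every library. The higher sums in KO rested on *Dab2* (mean 32.6 in WT, 78.7 in KO) and *Thy1* (72.5, 129.9). Of these, *Krt8* passed in all 6 fits without 1 library, *Dab2* failed without WT replicate 1 (adjusted p 0.0770) or WT replicate 2 (0.0531), and *Thy1* failed without any 1 library but WT replicate 3 (0.0518 to 0.248, DESeq2). The part of these shifts in the results on PRC2 genes was not tested.

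*Phf19* rose 2.97-fold in KO, *Suz12* and *Ezh1* fell to 77.4% and 74.8% of their WT means, and the other 7 genes did not pass the test. *Suz12* and *Ezh1* lie on chromosome 11, whose genes were lower in KO as a whole, and neither was called once that chromosome was centred in each library. A gene was called when its adjusted p was under 0.05 in the Wald test of DESeq2, adjusted with Benjamini-Hochberg over the 15309 genes tested. By that rule 1 of the 10 PRC2 genes was higher and 2 were lower. Over all genes, 1146 (7.49%) were called, 414 (2.7%) higher and 732 (4.78%) lower. The 3 called genes were also the ones among the 10 whose WT and KO libraries did not overlap, a pattern shown by 25.6% of the genes tested. The median log2FC of the 10 genes was 0.07, against 0.0087 over all genes tested. Without regard to sign the median was 0.140, against 0.164 over all genes tested. The 7 genes that were not called had fitted log2FC values between 0.05 and 0.16. The sign of *Phf1* turned when WT replicate 1 was left out (-0.11), and likewise for WT replicate 2 (-0.05) and KO replicate 1 (-0.03), and that of *Ezh2* without KO replicate 1 (-0.0062). With both shallow libraries left out the same 3 genes were called.

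**Figure D1:**
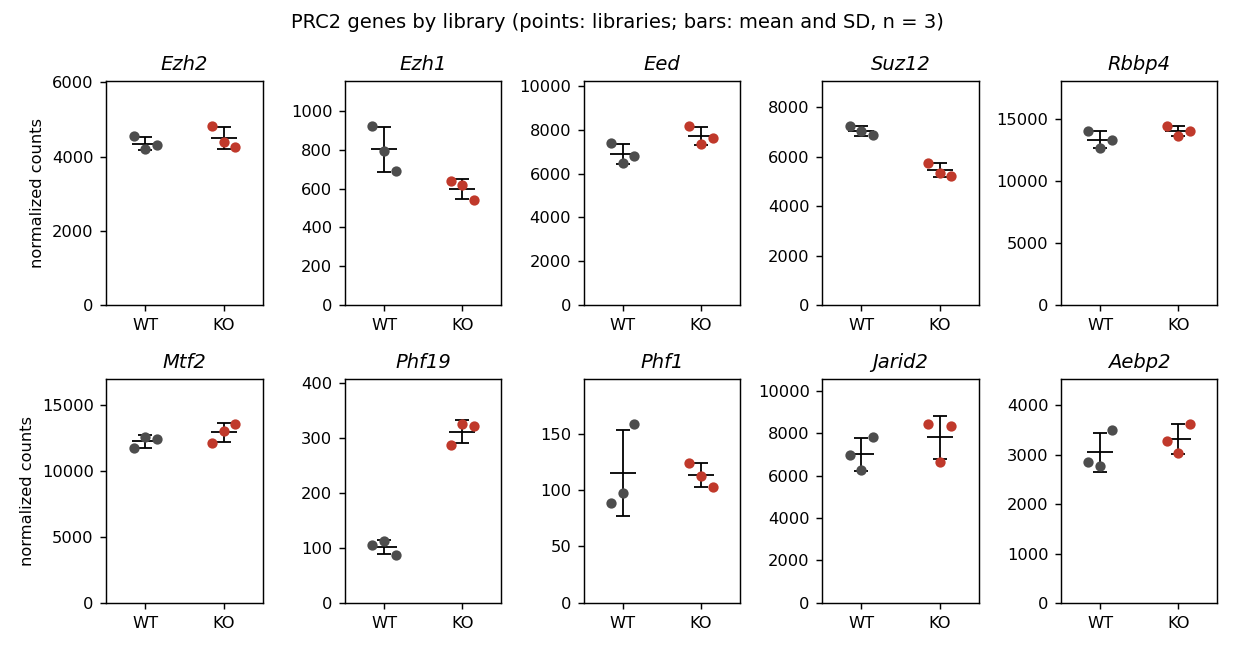
Normalized counts (vertical axes, from 0, on a scale of its own for each gene) of the 10 PRC2 genes in WT (grey) and KO (red). Points are libraries, replicates 1 to 3 from left to right, and bars are the mean and SD (n = 3). WT and KO points stand fully apart for *Ezh1*, *Suz12* and *Phf19* and overlap for the other 7 genes.

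The upstream sequences of the 3 called genes are shown because PATZ1 binds G-rich DNA and the cells compared differ in *Patz1*. They come from the RefSeq promoter table for GRCm38.p6 and end at the base before the annotated transcript start, read 5′ to 3′ on the strand of the gene. For *Phf19* this leaves 200 bases, since the GENCODE start lies upstream of the RefSeq start. The motif was searched in all 250 bases of each window. Capitals mark each match to GGGAGGG, a G-rich motif of the kind bound by PATZ1 and the related protein MAZ, or to its reverse complement.
Phf19, chr2:34914027-34914226, minus strand: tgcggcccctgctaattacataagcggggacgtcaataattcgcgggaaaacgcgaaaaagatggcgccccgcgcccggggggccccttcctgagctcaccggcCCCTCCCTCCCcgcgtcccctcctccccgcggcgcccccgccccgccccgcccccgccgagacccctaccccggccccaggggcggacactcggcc
Suz12, chr11:79992856-79993105, plus strand: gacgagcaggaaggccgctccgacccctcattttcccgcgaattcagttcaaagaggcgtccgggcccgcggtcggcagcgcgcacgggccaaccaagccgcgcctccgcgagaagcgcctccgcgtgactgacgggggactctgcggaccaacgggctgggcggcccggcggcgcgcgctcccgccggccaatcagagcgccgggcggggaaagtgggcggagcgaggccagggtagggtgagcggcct
Ezh1, chr11:101226464-101226713, minus strand: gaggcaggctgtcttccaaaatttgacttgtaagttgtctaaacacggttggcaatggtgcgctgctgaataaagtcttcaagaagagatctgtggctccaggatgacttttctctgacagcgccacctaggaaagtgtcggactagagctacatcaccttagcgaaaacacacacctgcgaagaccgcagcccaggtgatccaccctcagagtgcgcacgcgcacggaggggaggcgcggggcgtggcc
The *Phf19* sequence holds 2 matches that overlap each other, and the *Suz12* and *Ezh1* sequences hold 0. Of 32851 upstream windows of 250 bases in the table, 19.7% hold the motif on either strand, and 21.5% of 27025 genes have it in at least 1 window. Of the 10 PRC2 genes, 5 have it, namely *Phf19* and 4 of the 7 genes that were not called, *Aebp2*, *Eed*, *Jarid2* and *Phf1*. These matches are a description of the letters. Binding of PATZ1 at these genes was not analysed here.

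Of the catalytic genes, *Ezh1* was called lower and *Ezh2* did not pass. *Ezh1* (chromosome 11, 101191115 to 101226463, minus strand, GRCm38) was at 922, 793 and 690 normalized counts in WT and 638, 620 and 542 in KO. The highest KO library lay just under the lowest WT library. *Ezh1* fell from 802 ± 116 to 600 ± 51.4 (SD, n = 3 each), a log2FC of -0.42 (SE 0.14, 95% interval -0.69 to -0.15, adjusted p 0.0361, DESeq2). This call was a narrow one. The adjusted p was 0.401, 0.168, 0.129, 0.158 and 0.141 without WT replicate 1, WT replicate 2, KO replicate 1, KO replicate 2 and KO replicate 3 in turn, and 0.00376 without WT replicate 3. With the quasi-likelihood test of edgeR, which called 6.41% of its genes, it was 0.0650. DESeq2 gave 0.00102 with the replicate block, which called 14.6% of its genes, and 0.00811 without both replicate 3 libraries. The log2FC of *Ezh1* lay between -0.51 and -0.31 in the 6 fits without 1 library. *Ezh2* (chromosome 6, 47530139 to 47595341, minus strand), the catalytic gene of dividing cells, was at 4547, 4201 and 4313 normalized counts in WT and 4829, 4403 and 4268 in KO. Its libraries were mixed between the genotypes, and the log2FC was 0.05 (SE 0.10, adjusted p 0.891). The 95% interval of the difference ran from -9.08% to 17.7%.

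Per kb of exon, the scale on which levels of different genes were compared, *Ezh2* exceeded *Ezh1* in every library. *Ezh1* made up 15.4%, 14.5% and 12.6% of the summed *Ezh1* and *Ezh2* level in WT and 10.6%, 11.2% and 10.2% in KO, a mean of 14.2% ± 1.45 against 10.7% ± 0.505 (SD, n = 3 each). The log2 ratio of *Ezh1* to *Ezh2* was -2.46, -2.56 and -2.80 in WT and -3.08, -2.98 and -3.13 in KO. All KO libraries lay under all WT libraries, and the mean difference was -0.46. The exact two-sided permutation test gave 0.1, the smallest p that this test can give with 3 against 3 libraries. Within pairs of equal replicate number the ratio differed by -0.62, -0.42 and -0.33, lower in KO in 3 of 3 pairs. *Ezh1* lies on chromosome 11, whose genes were lower as a whole, and *Ezh2* does not. With *Ezh1* measured against the median of the other chromosome 11 genes in each library, the difference in the ratio was -0.19, the genotypes overlapped and the exact permutation p was 0.2. Within pairs that ratio differed by -0.28, -0.18 and -0.12, lower in KO in 3 of 3 pairs.

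Of the other core genes, *Suz12* fell and *Eed* and *Rbbp4* did not pass. *Suz12* (chromosome 11, 79993106 to 80034123, plus strand) was at 7237, 7017 and 6851 normalized counts in WT and 5757, 5352 and 5230 in KO. The highest KO library lay well under the lowest WT library. The mean fell from 7035 ± 194 to 5446 ± 276 (SD, n = 3 each), a log2FC of -0.37 (SE 0.09, 95% interval -0.54 to -0.19, adjusted p 0.00120, DESeq2). The call held in all 6 fits without 1 library, with adjusted p from 0.000852 to 0.0395, and with edgeR (0.0258).

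*Eed* (chromosome 7, 89954654 to 89980983, minus strand) was at 7403, 6465 and 6801 normalized counts in WT and 8175, 7349 and 7624 in KO. The KO library of each pair was the higher one, but the genotypes overlapped. The log2FC was 0.16 (SE 0.10, 95% interval -0.03 to 0.35), with an adjusted p of 0.408 without and 0.0222 with the replicate number as a block in the DESeq2 fit. That block raised the share of all genes called to 14.6%. The KO library of each pair was also the higher one for *Rbbp4*, *Mtf2*, *Jarid2* and *Aebp2*. With the block in DESeq2 the adjusted p was 0.0736 for *Jarid2* and 0.191 or more for the others. *Rbbp4* (chromosome 4, 129307100 to 129335370, minus strand) averaged 13379 ± 711 (WT) and 14056 ± 417 (KO) normalized counts, a log2FC of 0.07 (SE 0.09, adjusted p 0.801), with a 95% interval from -6.74% to 18.3%.

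The genes of the Polycomb-like proteins spanned the widest range of levels and held *Phf19*, the one of the 10 genes called higher without the replicate block. *Phf19* (chromosome 2, 34893757 to 34914026, minus strand) encodes a protein whose Tudor domain reads methylated lysine 36 of histone H3. Its raw counts were 184, 161 and 32 in WT and 509, 551 and 122 in KO, or 105, 114 and 87.6 normalized counts in WT and 287, 327 and 322 in KO. Every KO library stood far above every WT library, in the shallow pair as in the deep ones. The mean rose from 102 ± 13.3 to 312 ± 21.7 (SD, n = 3 each), a log2FC of 1.57 (SE 0.18, adjusted p 1.35e-15, DESeq2) or 2.97-fold with a 95% interval from 2.32-fold to 3.80-fold. The call held in all 14 alternative fits, with log2FC values from 1.49 to 1.65. Among the 398 genes called higher with a mean of at least 50 normalized counts in WT or in KO, *Phf19* ranked 16 by log2FC. The 12 genes within 1 Mb of *Phf19* with a mean of at least 50 over all libraries had log2FC values from -0.30 to 0.28, with a median of 0.05.

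*Mtf2* (chromosome 5, 108065674 to 108109004, plus strand), whose protein guides PRC2 to CpG islands, averaged 12216 ± 462 normalized counts in WT and 12902 ± 725 in KO. Its log2FC was 0.08 (SE 0.09, adjusted p 0.779), with a 95% interval from -6.51% to 19.2%. *Phf1* (chromosome 17, 26933052 to 26937908, plus strand) was at 88.6, 97.4 and 159 normalized counts in WT and 124, 112 and 103 in KO. WT replicate 3 stood high and the other WT libraries lay under the KO range, so that the KO mean was 98.4% of the WT mean although the fitted log2FC was positive. The log2FC was 0.06 (SE 0.25, adjusted p 0.952), and its 95% interval from -0.43 to 0.55, or -25.9% to 46.5%, was on the log2 scale the widest of the 10 genes. *Phf1* shares 39.3% of its exon bases with the antisense protein-coding gene *Cuta*, and reads of the pair cannot be told apart if strand was ignored.

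*Mtf2* dominated this trio in both genotypes. Per kb of exon it made up 97.6% ± 0.333 (WT) and 96.0% ± 0.204 (KO) of the summed level of *Mtf2*, *Phf19* and *Phf1*. *Phf19* made up 0.996%, 1.00% and 0.775% in WT and 2.57%, 2.73% and 2.59% in KO. The KO libraries again stood above all WT libraries. *Phf1* held 1.49% ± 0.463 in WT and 1.38% ± 0.206 in KO.

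The PRC2.2 genes did not pass. *Jarid2* (chromosome 13, 44729474 to 44921643, plus strand), which encodes a catalytically inactive Jumonji protein that stimulates PRC2, was at 6960, 6252 and 7812 normalized counts in WT and 8449, 6624 and 8319 in KO. The genotypes overlapped, with a log2FC of 0.15 (SE 0.12, adjusted p 0.621) and a 95% interval from -5.85% to 31.6%. *Aebp2* (chromosome 6, 140622663 to 140678472, plus strand), a zinc finger gene, averaged 3049 ± 403 in WT and 3319 ± 298 in KO, a log2FC of 0.12 (SE 0.12, adjusted p 0.715) with an interval from -7.32% to 28.2%. The log2 ratio of the summed PRC2.2 genes to the summed Polycomb-like genes, per kb, was -1.06, -1.28 and -0.95 in WT and -0.89, -1.26 and -1.01 in KO. The libraries were interleaved, and the mean difference of 0.04 had an exact two-sided permutation p of 0.7. It turned to -0.05 without WT replicate 2 and to -0.04 without KO replicate 1. *Jarid2* made up 70.0% ± 1.07 of the pair in WT and 70.3% ± 1.77 in KO.

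**Figure D2:**
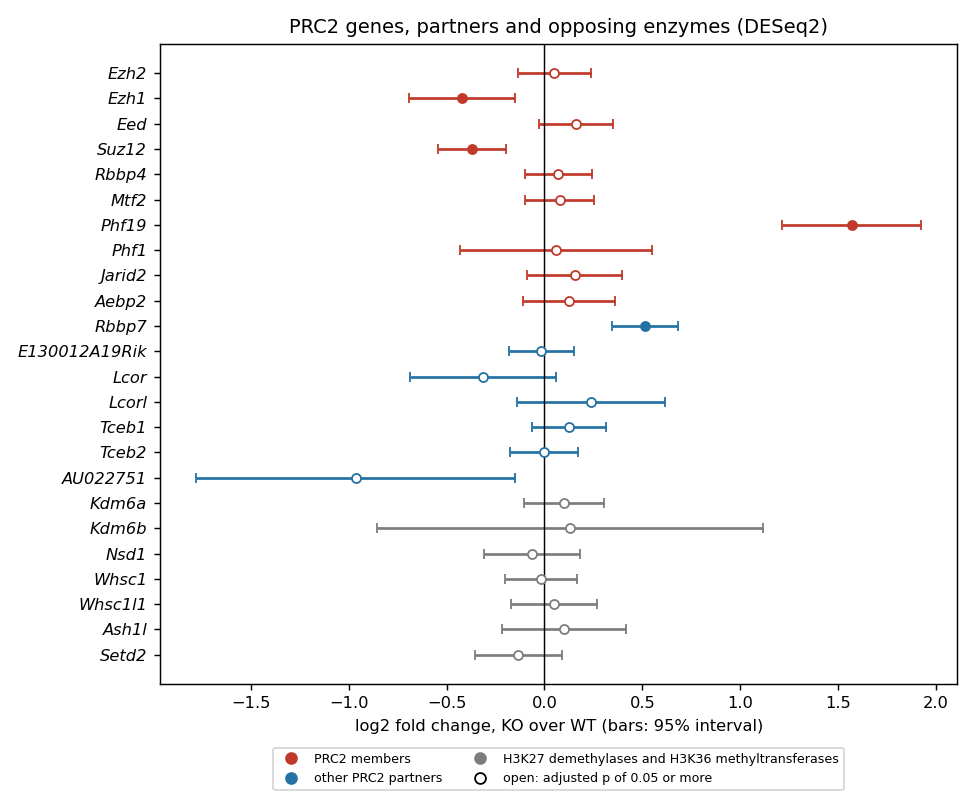
Log2FC of KO over WT (horizontal axis) with its 95% interval from the DESeq2 fit, for the PRC2 genes (red), other PRC2 partners (blue) and enzymes acting on lysines 27 and 36 of histone H3 (grey, *Uty* not drawn). Filled points had an adjusted p under 0.05. *Phf19* at 1.57 lies far to the right, *Suz12* at -0.37 and *Ezh1* at -0.42 to the left, and the other 7 PRC2 genes lie between 0.05 and 0.16 with intervals that cross 0.

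The order of the genes by level per kb was largely kept between the genotypes. In WT, *Mtf2* stood highest with 2144 normalized counts per kb, followed by *Eed* with 1800, *Rbbp4* with 1530, *Suz12* with 1423, *Jarid2* with 721, *Ezh2* with 652, *Aebp2* with 309, *Ezh1* with 108, *Phf1* with 33.0 and *Phf19* with 20.3. Libraries of *Rbbp4* and *Suz12* overlapped, as did those of *Jarid2* and *Ezh2*, and the other neighbours in this order did not overlap. *Mtf2* was higher than 94.6% and *Phf19* than 8.03% of the 11444 genes compared, which are only a part of the 19404 symbols with a count. In KO, *Mtf2* (2264) and *Eed* (2016) overlapped, *Suz12* fell to 1101 and no longer overlapped *Rbbp4* at 1607, and *Phf19* at 61.9 changed places with *Phf1* at 32.4.

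If strand was ignored in counting, which the sources used here do not say, reads of antisense genes would enter some of these values. The shared part of the exon bases is 2.61% for *Ezh2* (with *Gm26625*), 3.6% for *Suz12* (*Gm26563*), 6.82% for *Eed* (*E230029C05Rik*), 6.93% for *Mtf2* (*Tmed5*), and 9.10% and 8.94% for *Rbbp4* (*Gm26722* and *Sync*). *Ezh1*, *Phf19*, *Jarid2* and *Aebp2* share none. A search of the annotated transcripts for stretches of at least 200 bases with at least 95% identity found none for the 10 genes outside these overlapping genes.

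*Suz12* and *Ezh1*, the 2 genes called lower, both lie on chromosome 11, and genes of that chromosome were lower as a whole. Of 961 chromosome 11 genes with a mean of at least 50 normalized counts, 90.7% had a negative log2FC, with a median of -0.26 and quartiles of -0.37 and -0.15. The 10108 such genes on the other autosomes had a median of 0.03 and quartiles of -0.09 and 0.13. Of the chromosome 11 genes tested, 20.2% were called lower, against 4.78% of all genes. Among the chromosome 11 genes, 25.6% had a lower log2FC than *Suz12* and 19.6% a lower one than *Ezh1*. On the other autosomes the shares were 6.33% and 5.11%. So *Suz12* lay near the lower quartile of its own chromosome and *Ezh1* below that quartile, and both lay toward the low end of the other autosomes.

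**Figure D3:**
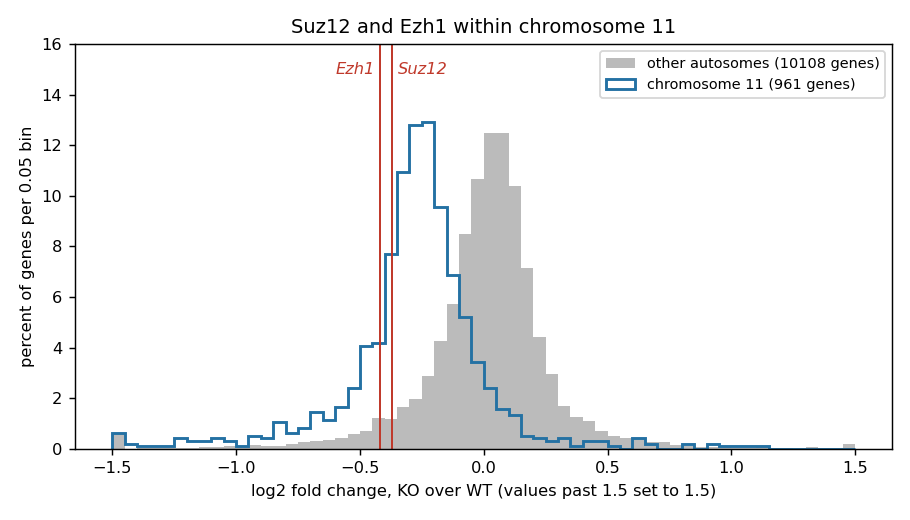
Distribution of log2FC values of KO over WT (horizontal axis, values past 1.5 drawn at 1.5) as percent of genes per bin (vertical axis), for 961 chromosome 11 genes (blue outline) and 10108 genes of the other autosomes (grey). Red lines mark *Ezh1* at -0.42 and *Suz12* at -0.37, left of the chromosome 11 median of -0.26 and inside its distribution.

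Neighbouring genes showed the same downward shift. Within 1 Mb of *Suz12*, 15 of 16 genes with a mean of at least 50 had a negative log2FC, with a median of -0.23, and 5 were called lower. Within 1 Mb of *Ezh1* it was 46 of 50 genes, with a median of -0.26, and 15 were called lower. *Suz12* was then measured against the median of the other 960 chromosome 11 genes in each library. This log2 value was 0.0023, 0.070 and 0.081 in WT and 0.012, -0.076 and -0.097 in KO. The genotypes overlapped, and the difference of -0.10 had an exact two-sided permutation p of 0.2. The same measure of *Ezh1* was 0.19, 0.09 and -0.07 in WT and 0.0025, -0.02 and -0.20 in KO, a difference of -0.15 with an exact permutation p of 0.3. Within pairs of equal replicate number *Suz12* differed by 0.0096, -0.15 and -0.18, lower in KO in 2 of 3 pairs. *Ezh1* differed by -0.19, -0.11 and -0.14, lower in 3 of 3 pairs, for which the exact sign-flip permutation test gave 0.25, the smallest p it can give with 3 pairs. With chromosome 11 and the distal part of X each centred on its median in every library, DESeq2 called 4.85% of its genes. In that fit *Suz12* had a log2FC of -0.10 (adjusted p 0.733) and *Ezh1* of -0.15 (0.740), so that neither call remained, while *Phf19* was still called. *Patz1*, on the same chromosome, had a log2FC of -0.87 in that fit and of -1.14 without centring.

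**Figure D4:**
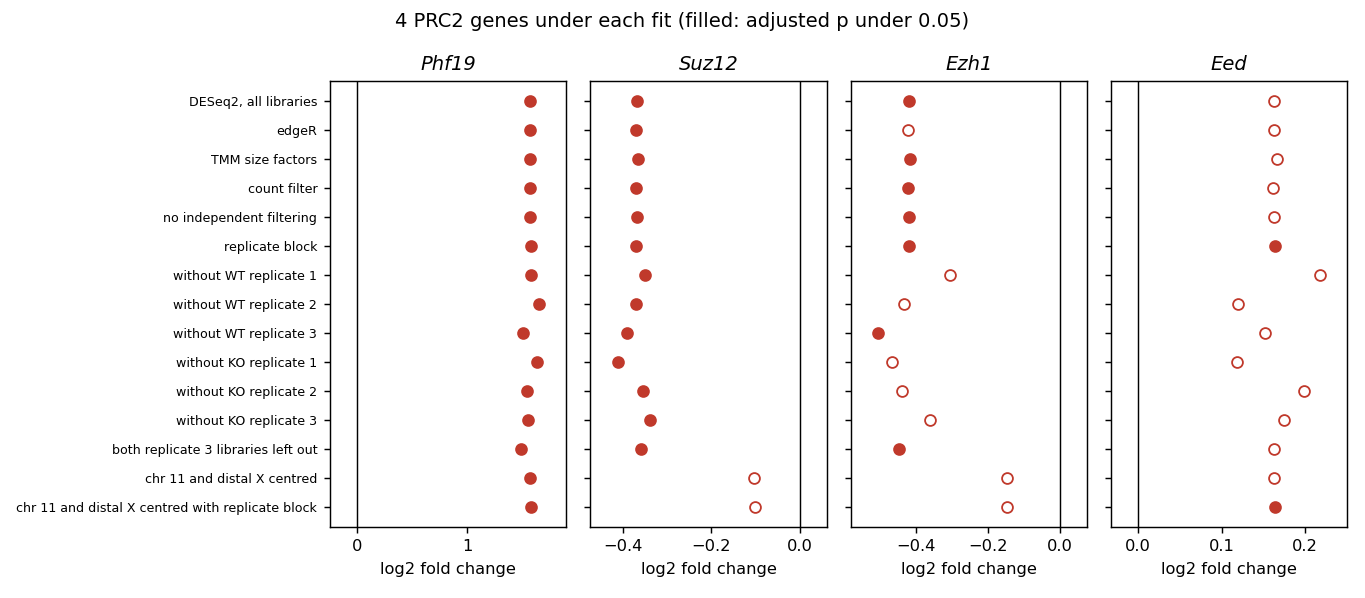
Log2FC of KO over WT (horizontal axes, on a scale of its own for each gene) of *Phf19*, *Suz12*, *Ezh1* and *Eed* under the DESeq2 fit to all libraries and the 14 alternatives (rows). Filled points had an adjusted p under 0.05: *Phf19* is filled in every row, *Suz12* is open only in the 2 rows with chromosome 11 centred, *Ezh1* is open in 8 of the 14 alternatives, and *Eed* is filled only in the 2 rows with the replicate block.

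The genes whose pattern over the 6 libraries was most like that of each called gene were taken by Pearson's r of log2 normalized counts among 11524 genes. For *Phf19* they were *Iqgap2* (r 0.998, log2FC 0.48), *S100a10* (0.998, 0.50) and *Klhl34* (0.997, 0.64). For *Suz12* they were *Grn* on chromosome 11 (r 0.997, log2FC -0.52), *Zp3* (0.995, -1.28) and *Was* (0.995, -1.14). For *Ezh1* they were *Zxdc* on chromosome 6 (r 0.998, log2FC -0.32), with *Tmem11* (0.997, -0.28) and *Syngr2* (0.997, -0.39) on chromosome 11. The 6 libraries behind each r share the split by genotype and the shallow pair, and r is given as a description only.

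Of 7 further partners of PRC2, 1 was called, and it was higher. *Rbbp7* (X, 162760402 to 162779092, plus strand), the alternative to *Rbbp4* in the core, was at 15253, 15766 and 15503 normalized counts in WT and 23415, 21698 and 21271 in KO. All KO libraries stood well above WT, and the log2FC was 0.51 (SE 0.09, adjusted p 2.11e-07, DESeq2). *Rbbp7* lies on the distal part of X (after *Ogt*), where 92.1% of 178 genes with a mean of at least 50 had a positive log2FC, with a median of 0.43. With that region and chromosome 11 centred, the log2FC of *Rbbp7* was 0.07 (adjusted p 0.895). *E130012A19Rik*, the older name of *Epop*, whose protein links PRC2.1 to elongin, averaged 6111 ± 113 in WT and 6046 ± 208 in KO (log2FC -0.02, SE 0.09, adjusted p 0.964). It lies on chromosome 11, whose median was -0.26. With chromosome 11 centred and the replicate block its log2FC was 0.25 (adjusted p 0.000447), and without the block also 0.25 (0.119). The other partners were *Lcor* (log2FC -0.31) and *Lcorl* (0.24), whose loci encode the PALI proteins of PRC2.1, the elongin genes *Tceb1* (0.13) and *Tceb2* (-0.0030), and *AU022751* (-0.96, adjusted p 0.163), the older name of the PRC2 inhibitor gene *Ezhip*. *AU022751* was at only 36.3 ± 7.15 normalized counts in WT and 19.2 ± 2.32 in KO.

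Among 8 genes of the H3K27 demethylase and H3K36 methyltransferase families, only *Uty* was called. *Uty*, the copy of *Kdm6a* on the Y chromosome, was at 856, 669 and 597 normalized counts in WT and 20.9, 21.4 and 26.4 in KO. The log2FC was -5.03 (SE 0.23, adjusted p 7.46e-100, DESeq2), and it was called in all 6 fits without 1 library. The Y chromosome was not centred in any fit, and whether its other genes fell along with *Uty* was not tested. The demethylase genes *Kdm6a* and *Kdm6b* did not pass. *Kdm6a* was at 1265 ± 36.8 in WT and 1356 ± 81.5 in KO (log2FC 0.10, SE 0.10). *Kdm6b* varied widely, at 226 ± 102 in WT and 247 ± 116 in KO (0.13, SE 0.50). The methyltransferase genes *Nsd1* (-0.06), *Whsc1* (-0.02), *Whsc1l1* (0.05), *Ash1l* (0.10) and *Setd2* (-0.13) had log2FC values near 0 and adjusted p of 0.653 or more.

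Genes known to carry H3K27me3 in ESCs were mostly low in both genotypes. Of 24 such genes, nearly all developmental regulators, 15 had an adjusted p, 5 of them with a mean of at least 50 normalized counts, and 4 of the 24 were at or under 3 counts in every library. By DESeq2 0 were called higher and 1 lower, with 3 of the 24 at an unadjusted p under 0.05, and edgeR gave the same counts of calls. The median log2FC of the 15 was -0.17, against 0.0087 over all genes tested. *Cdx2*, a trophoblast regulator that also stands in the trophoblast list above, was at 117, 105 and 115 normalized counts in WT and 62.1, 73.5 and 68.7 in KO. The genotypes did not overlap, and the log2FC was -0.72 (SE 0.24, adjusted p 0.0350, DESeq2). The adjusted p was 0.259, 0.149 and 0.0644 without WT replicates 1, 2 and 3 and 0.291, 0.144 and 0.0592 without KO replicates 1, 2 and 3. So none of the 6 fits without 1 library kept the call, while the log2FC in them lay between -0.80 and -0.65.

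*Eomes* and *Cdkn2a*, the most abundant of these targets, averaged 701 ± 98.6 and 288 ± 55.4 normalized counts in WT and 615 ± 124 and 353 ± 111 in KO, with adjusted p of 0.669 and 0.564. *Foxa2*, an endoderm regulator, had 0 raw counts in all WT libraries and 22, 7 and 2 in KO, too few for an adjusted p under the default filtering. Its adjusted p was 0.0204 without that filtering and 0.0224 with chromosome 11 and distal X centred, the 2 of 14 alternatives that called it. Without WT replicate 1 or 2 it was 0.157 and 0.125, and the other 4 fits without 1 library gave no adjusted p. *Foxa2* was singled out after its values were seen. These counts allow no statement on the histone mark itself, which was not analysed here.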

How the data were processed

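Stranded libraries were made from total RNA of E14 ESCs after removal of ribosomal RNA. The deposited values are whole-number read counts per gene symbol for each library, not normalized by the authors. The processing notes of the submitters list TopHat2 2.1.1, Bowtie2 2.3.1.0, featureCounts 1.6.2 and DESeq2, without roles, and mm10. The gene annotation and the strand setting of counting are not given in the sources used here.

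The test followed the stated method of the study, the two-sided Wald test of DESeq2 (1.42.0 here, R 4.3.3) with a threshold of 0.05, genotype as the only term, median-of-ratios size factors and default independent filtering (0.1), fitted to all 23420 symbols. Of these, 19404 had a count and 23280 a position in GENCODE M21 (GRCm38, the same assembly as mm10), 1495 of them through an older symbol. Levels per kb used the summed exon bases. Log2 ratios to chromosome 11 used a pseudocount of 1 and genes with a mean of at least 50 normalized counts. The floor of 3 counts corresponded to 1.69 to 8.21 normalized counts and covers counting error only. The fits were tested on simulated data.

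There were 14 alternatives, namely edgeR (4.0.16, quasi-likelihood), TMM size factors, keeping only genes with 10 or more counts in 3 or more libraries, the fit without independent filtering, a block for replicate number, each library left out, both replicate 3 libraries left out, and chromosome 11 and distal X centred in each library, without and with the block. Deviations from the group means correlated within pairs of equal replicate number (r 0.469, 0.619 and 0.684 over 11524 genes), and the numbers were taken to pair the samples. Deviations within a group cancel out, so the composition shared by the replicate 3 libraries also enters the r of the other pairs. By the chi-square statistic, WT replicate 1 was closer to WT replicate 2 (43.5) than to KO replicate 1 (52.2). KO replicate 1 was closest to KO replicate 2 (18.9), and WT replicate 2 to KO replicate 2 (27.7). The pairing of replicates 1 and 2 was thus not settled. No 2 libraries were alike within counting noise, and replicate 3 of WT and of KO were closer to each other than to the libraries of their own genotype.

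The rule for the PRC2 genes uses names only, but they and all lists were chosen with earlier results of these data known. Genes named are the PRC2 genes, *Patz1*, *Rbbp7*, *Epop*, list members under the threshold, and the 3 genes most correlated with each called PRC2 gene, with other list members as examples. Sequences are from RefSeq (GRCm38.p6).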

Additional observations from a re-analysis of the deposited data

How the results depend on the processing

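*Phf19* was higher and under the threshold in all 14 alternatives. *Suz12* lost its call in 2 of them, both with chromosome 11 centred (log2 fold change -0.10 in each), and *Ezh1* in 8 of 14, while *Eed* gained one in the 2 with the replicate block. The other 6 PRC2 genes were called in none of the 14. The number of PRC2 genes called was 1 with chromosome 11 and distal X centred, 2 with edgeR, 4 with the replicate block and between 2 and 3 with 1 library left out. Over all genes, 2131 were called with the replicate block, and between 583 and 1341 with 1 library left out, where WT replicate 1 left out gave 605, WT replicate 2 gave 664, KO replicate 1 gave 583 and KO replicate 2 gave 590. Of the further partners, 0 were called by DESeq2 with chromosome 11 and distal X centred (2 at an unadjusted p under 0.05, and edgeR without centring called 1), where *Rbbp7* lost its call, and *E130012A19Rik* had 0.25 on the log2 scale (adjusted p 0.000447) in place of -0.02 once that centring was joined with the block. Of the PRC2 targets, 2 were called without independent filtering and 2 with centring (*Cdx2* and *Foxa2*), 0 by DESeq2 without both replicate 3 libraries and 0 with centring and the block (4 at an unadjusted p under 0.05 in each), and between 0 and 1 with 1 library left out (2 to 3 unadjusted), where edgeR on all libraries called 1. The differences of *Suz12* and *Ezh1* to chromosome 11 and the log2 ratio of *Ezh1* to *Ezh2* kept their sign in every alternative run, among them one chosen after seeing the data, in which *Ezh1* was measured against chromosome 11 and the ratio differed by -0.19 in place of -0.46. With 1 library left out, the difference to chromosome 11 ranged from -0.218 to -0.082 for *Ezh1* and from -0.141 to -0.085 for *Suz12*. The log2 ratio of PRC2.2 to PRC2.1 genes ranged from -0.049 to 0.148 with 1 library left out, where WT replicate 2 left out gave -0.049 and KO replicate 1 gave -0.042. The causes were not tested beyond the centring and the smaller number of libraries themselves. A floor of 3 counts was 8.21 normalized counts in the shallowest library and 1.69 in the deepest, and whether depth limited the calls among PRC2 targets was not tested. With the pairing as a block the sign-flip test of the 4 ratios gave exact permutation p from 0.25 to 0.75, where 3 pairs cannot go below 0.25.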
